A study of Mus musculus with 4 samples.

Results

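The genes described here encode the enzymes and remodelling factors that write, erase and act on chromatin marks, in C2C12, an established line of mouse myoblasts. They were chosen by symbol: the KMT, SETD, EZH and PRDM methyltransferase families, the KDM demethylases, the HDAC and SIRT deacetylases, the KAT acetyltransferases, the PRMT arginine methyltransferases, the DNMT and TET enzymes of DNA methylation, and the SMARC and CHD remodelling families. The rule uses symbols alone and no measured value, but it was set with earlier results of these data known. Of the 12393 genes with a probe set of their own on the Affymetrix array, 76 met the rule; RefSeq lists 113 protein-coding genes that would, and the others were not analysed here. The cells had been held in semi-solid methyl cellulose for 48 hours, which brings them into G0, a reversible resting state outside the cell cycle. In 1 group purified Wnt3A, a secreted ligand of the canonical Wnt pathway, was present at 50 ng/ml; the other group is labelled as control. Each group had 2 arrays of total RNA, called biological replicates in the labels, which do not say whether the cultures were started apart. All 4 arrays come from 1 cell line and 1 time point, so the comparison is of Wnt3A with control inside G0 and says nothing of the step from growth to G0.

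Chromatin enzymes set how tightly DNA is packed and which genes can be read. Acetyltransferases and H3K4 methyltransferases are mostly found at active genes, deacetylases, the EZH enzymes of Polycomb complex PRC2 and the DNA methyltransferases mostly at silent ones, and remodellers of the SMARC and CHD families move or evict nucleosomes with energy from ATP. In muscle, the SWI/SNF remodeller with its ATPase Smarca4 or Smarca2 and the subunit Smarcd3 works with MyoD at muscle genes, and class II deacetylases and Ezh2 hold those genes silent in myoblasts. Canonical Wnt signalling acts through β-catenin and the LEF/TCF factors, which recruit acetyltransferases and SWI/SNF to their target genes. Not every member is an enzyme of histones or DNA: several SMARC genes encode subunits with no catalytic activity of their own, Dnmt3l encodes an inactive cofactor, and Setd3 methylates actin.

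Signals are on a log2 scale, where 1 unit is a factor of 2, and a difference is the mean of the 2 Wnt3A arrays minus the mean of the 2 control arrays. The base of the logarithm was read from the values and is not stated by the submitters. Signals of different probe sets cannot be set against each other, so levels are compared only within a gene. The medians of the 4 arrays were between 4.15 and 4.22. As a check on the labels, Axin2, a feedback gene of the Wnt pathway, read 5.13 and 6.14 with Wnt3A, against 3.25 and 3.21 in control. The limit for dim genes was a mean signal of 2.18, which leaves out the lowest 25% of genes. Of 15 myoblast and muscle markers, Des, Myf5 and Myod1 were among those well above it. Pax3 was close to it, at a mean of 2.45, and Pax7 was dim, at 2.04. Among the 14 tested, 13 were lower on the deposited scale, as were 53% of all tested genes, and Myf5 alone was higher. Myf5 read 7.77 and 7.65 with Wnt3A, against 6.57 and 5.98 in control. Myod1 read 6.32 and 3.62 with Wnt3A and 6.84 and 7.11 in control. Of 14 markers of other cell types 7 were dim, among them the leukocyte gene Ptprc, the endothelial genes Cdh5 and Pecam1 and the epithelial genes Epcam, Cdh1 and Krt18. In the 7 that were detected the groups did not overlap, a state that 34.4% of all tested genes shared. Of these 7, 5 were lower and 2 higher on the deposited scale, with a median difference of -1.16, and none passed the adjusted test. The fibroblast markers Fap, Pdgfra and Dcn differed by -1.65, -1.22 and -1.18; of the macrophage markers Cd14 differed by -1.16, Csf1r by 1.03 and Cd68 by 0.28, and the endothelial Kdr by -0.26. The mean over the 14 was 2.93 and 3.05 with Wnt3A, against 3.34 and 3.30 in control, and the part of these markers in the results on the chromatin genes was not tested. In whole cultures, fewer cells of a kind and less RNA per cell cannot be told apart. Replicate 2 of both groups stood apart from replicate 1 on the array's own control for 18S ribosomal RNA, which read 10.96 and 9.98 with Wnt3A and 11 and 7.57 in control. For actin the 3′ signal exceeded the 5′ signal by 0.80 and 0.89 with Wnt3A, against 0.70 and 0.93 in control.

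Of the 76 genes, 72 were above the limit for dim genes and were tested. The remaining 4 were Hdac9, a class IIa deacetylase of muscle, the Y-linked demethylase Kdm5d, the methyltransferase Setd7, which binds MyoD, and the ISWI ATPase Smarca1. Their means over the 4 arrays lay between 1.21 and 1.75, and the groups overlapped in 3 of them. Hdac9 read 1.61 and 1.70 with Wnt3A and 1.47 and 1.94 in control, and Setd7 read 1.82 and 1.53 with Wnt3A and 2.04 and 1.62 in control. For Kdm5d, both Wnt3A arrays, at 1.34 and 1.27, lay above both control arrays, at 1.18 and 1.23, all of them far below the limit.

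None of the 72 differed between Wnt3A and control past an adjusted p of 0.05 in limma, where the share called among all 9294 tested genes was also 0%. The lowest adjusted p of a member was 0.658. An unadjusted p under 0.05 was reached by 3 members, Prdm1, Smarca2 and Chd7, or 4.17% of them, against 5.68% of all tested genes. Both Wnt3A arrays lay below both control arrays in 17 members, or 23.6%, where the share among all tested genes was 19.8%. Both lay above in 7 members, or 9.72%, where it was 14.7%. At least 1.5-fold apart without overlap were 4 members, or 5.56%, against 8.97% of all tested genes: Prdm1 and Chd7 were higher, as were 3.92% of all tested genes, and Smarca2 and Smarcc1 were lower, as were 5.06%. A difference of 2-fold was reached by Smarca2 alone, 1.39% of members, where 4.43% of all tested genes reached it. These shares lie near those of all genes or below them.

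The differences were small. In 45 of the 72 the difference was within 0.25 of 0, and the median absolute difference was 0.20, the same as the 0.20 of all tested genes. The precision is low: the 95% confidence interval reached a median of 0.644 to either side of the difference, and in 44 of the 72 genes the whole interval lay inside a 2-fold change. In the other 28 it reached past 2-fold. The median difference was -0.07 over the members, with 44 lower and 28 higher with Wnt3A, and -0.02 over all tested genes, of which 53% were lower and 47% higher. Scaling the arrays to their hybridization controls moved the median of all genes to 0.30 and left 16 members below 0. Relative to the median of all genes, 43 members were below with the values as deposited and under quantile normalization. Scaling to hybridization controls shifts all genes of an array alike, so it cannot change this count.

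**Figure D1:**
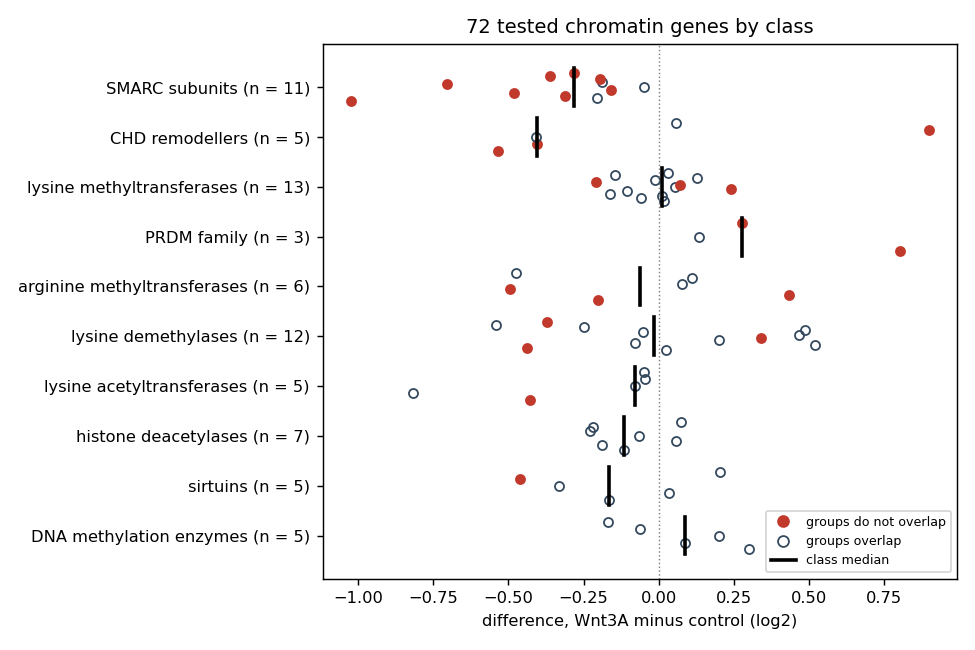
Difference between Wnt3A and control (log2, horizontal) for each of the 72 tested genes, grouped by class; filled points mark genes whose Wnt3A arrays both lie outside the range of the control arrays, and the black bar is the class median. All 11 SMARC subunits lie below 0 (4 of 11 with arrays scaled to their hybridization controls), 8 of them without overlap, while the 7 histone deacetylases all overlap.

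The SMARC family, subunits of SWI/SNF and related ATPases, was the largest class whose tested members all lay on the same side of 0 with the values as deposited, although no member passed the test. Of its 11 tested members 11 had a difference below 0, against 4 of 11 with arrays scaled to their hybridization controls, and in 8 of them both Wnt3A arrays lay below both control arrays, where 53% and 19.8% of all tested genes did so. The median difference was -0.28, with a range from -1.02 to -0.05. After that scaling the median was 0.04, beside a median of all genes of 0.30. All 11 lay below the median of all genes as deposited and with quantile normalization, by -0.26 at the median of the class. Median centring and scaling to hybridization controls shift all genes of an array alike, so they cannot change this count. The number lower was 11 without either Wnt3A array or without control replicate 1, and 10 without control replicate 2. Leaving out 1 array gave medians from -0.39, without control replicate 1, to -0.17, without control replicate 2. Within replicate 1 the class median was -0.05, and within replicate 2 it was -0.41.

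Smarca2, which encodes BRM, the ATPase of SWI/SNF that is common in resting and differentiated cells, read 3.67 and 3.93 with Wnt3A, against 4.55 and 5.09 in control. Both Wnt3A arrays were below both control arrays by more than the replicates differed. The difference was -1.02 (SE 0.27, 95% interval -1.74 to -0.30, adjusted p = 0.679 in limma). Smarcc1, the gene of the BAF155 scaffold, read 7.96 and 7.26 with Wnt3A, against 8.44 and 8.19 in control, a difference of -0.70 (SE 0.30, adjusted p = 0.917 in limma). The Wnt3A arrays were further apart than the control arrays, with replicate 2 the lowest of the 4. Smarcad1, a remodeller that helps restore silent chromatin after replication, read 5.90 and 5.85 with Wnt3A, against 6.36 and 6.35 in control, and its replicates lay close together in both groups. The difference was -0.48 (SE 0.20, adjusted p = 0.917 in limma).

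Both mutually exclusive ATPases of SWI/SNF could be compared. Smarca4, which encodes BRG1, read 7.60 and 7.56 with Wnt3A and 7.60 and 7.97 in control, a difference of -0.20 (95% confidence interval -0.78 to 0.37), and its groups overlapped. In these brightest probe sets the difference of Smarca2 was wider than that of Smarca4, but the gap between these differences was not tested. The second probe sets went the other way, by 0.07 for Smarca2 and by 0.235 for Smarca4, where the groups overlapped. Among the SMARCD subunits, of which a complex holds 1, the muscle form Smarcd3 (BAF60C) read 6.26 and 5.95 with Wnt3A, against 6.30 and 6.62 in control. Smarcd2 read 8.11 and 7.94 with Wnt3A and 8.15 and 8.28 in control, also without overlap. Smarcd1 overlapped at 3.90 and 3.54 with Wnt3A and 3.89 and 3.93 in control. Within replicate 1 both Smarcd3 and Smarcd2 differed by -0.05, and within replicate 2 by -0.67 and -0.35. Myog, the myogenin gene of early muscle differentiation, read 7.42 and 6.66 with Wnt3A and 8.0 and 9.27 in control (adjusted p = 0.809 in limma), without overlap. The mean of 15 myoblast and muscle markers was 6.86 and 6.21 with Wnt3A and 6.94 and 7.66 in control, and the part of these genes in the Smarcd3 difference was not tested.

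Smarcb1, the SNF5 core subunit, had the smallest difference of the 11 with the values as deposited. It read 7.31 and 7.38 with Wnt3A and 7.30 and 7.48 in control, a difference of -0.05 (95% confidence interval -0.56 to 0.46). Smarce1, the BAF57 subunit with an HMG box, read 6.99 and 6.88 with Wnt3A, against 7.09 and 7.34 in control. Outside SWI/SNF, Smarca5, the ATPase SNF2H of the ISWI remodellers, read 8.63 and 8.34 with Wnt3A and 8.88 and 8.72 in control. Smarcal1, an annealing helicase of stalled replication forks, read 6.19 and 5.93 with Wnt3A and 6.20 and 6.23 in control. Smarce1, Smarca5 and Smarcal1 did not overlap between groups, and Smarcb1 did.

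**Figure D2:**
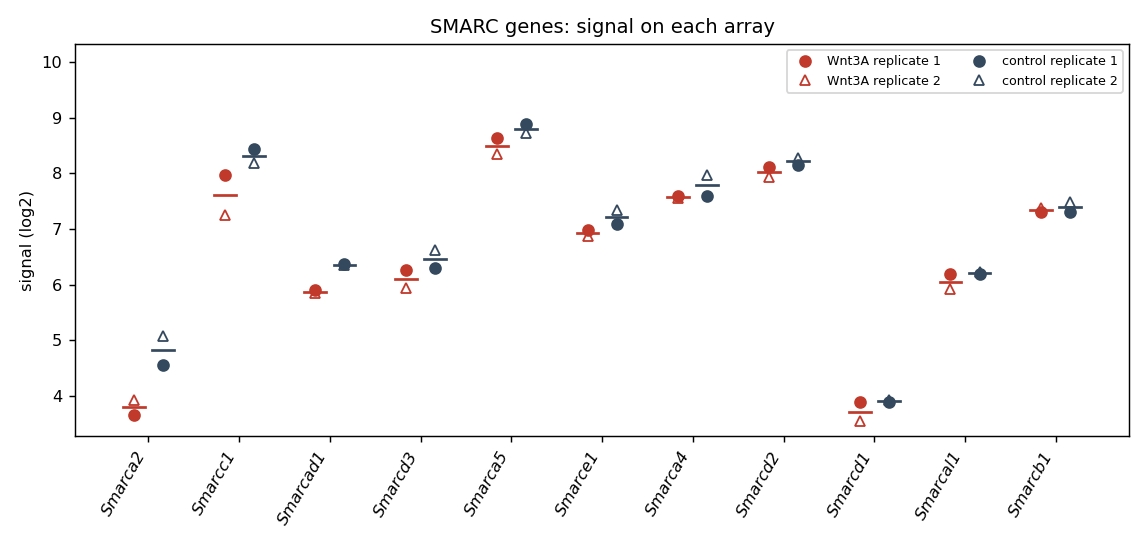
Signal (log2, vertical) of the 11 tested SMARC genes on each array, ordered from the widest to the smallest difference; circles are replicate 1, triangles replicate 2, and the bars are group means. Smarca2 and Smarcad1 show the Wnt3A arrays clear of the control arrays on the deposited scale, while Smarca4, Smarcd1 and Smarcb1 overlap.

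The choice of the brightest probe set bears on this result. The 11 SMARC genes had 22 probe sets above the limit, and of the 11 that were not chosen 6 were lower and 5 higher with Wnt3A, with a median difference of -0.01. The second probe set of Smarca2, near the limit, read 2.36 and 2.42 with Wnt3A, against 2.34 and 2.30 in control. That of Smarcad1 read 4.21 and 4.80 with Wnt3A, against 4.78 and 4.02 in control. In the second set of Smarca2 both Wnt3A arrays lay above both control arrays, by a mean of 0.07, the reverse of its brighter set. In that of Smarcad1 the groups overlapped. By contrast the second probe set of Smarce1 read 6.90 and 6.80 with Wnt3A, against 7.12 and 7.22 in control, and that of Smarcd2 read 6.02 and 6.04 with Wnt3A, against 6.06 and 6.28 in control. When the probe sets of each gene were averaged, 10 of the 11 genes were lower, with a median of -0.19, and 5 did not overlap.

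The start regions of 2 SMARC genes with wide negative differences and of Prdm1, with a wide positive one, are shown to set their letters side by side, together with the only member whose region holds the letters of a LEF/TCF site. Each is the 250 bases before the annotated start in RefSeq, build GRCm38.p6, 5′ to 3′ on the gene's strand, with the first listed start of a gene used; capitals mark the LEF/TCF letters CTTTGAT, the GC box GGGCGG and the CCAAT box CCAAT on either strand. The Smarca2 region lies at chr19:26604910-26605159 on the plus strand, the Smarcc1 region at chr9:110131774-110132023 on the plus strand, the Prdm1 region at chr10:44458749-44458998 on the minus strand and the Kmt2d region at chr15:98871206-98871455 on the minus strand.
Smarca2: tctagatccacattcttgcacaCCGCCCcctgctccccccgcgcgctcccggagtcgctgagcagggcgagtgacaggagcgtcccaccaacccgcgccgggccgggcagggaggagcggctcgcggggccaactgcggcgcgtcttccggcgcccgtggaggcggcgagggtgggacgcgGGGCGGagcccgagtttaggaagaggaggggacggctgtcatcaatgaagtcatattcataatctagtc
Smarcc1: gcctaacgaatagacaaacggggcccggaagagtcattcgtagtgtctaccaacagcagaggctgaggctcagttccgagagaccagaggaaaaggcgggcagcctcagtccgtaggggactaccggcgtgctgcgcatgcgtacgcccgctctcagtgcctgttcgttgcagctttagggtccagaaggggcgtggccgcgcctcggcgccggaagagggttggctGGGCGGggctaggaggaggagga
Prdm1: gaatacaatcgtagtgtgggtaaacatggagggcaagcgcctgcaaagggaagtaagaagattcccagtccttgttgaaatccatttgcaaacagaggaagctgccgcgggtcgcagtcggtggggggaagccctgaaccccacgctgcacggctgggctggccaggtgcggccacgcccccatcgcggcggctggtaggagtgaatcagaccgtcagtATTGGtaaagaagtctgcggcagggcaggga
Kmt2d: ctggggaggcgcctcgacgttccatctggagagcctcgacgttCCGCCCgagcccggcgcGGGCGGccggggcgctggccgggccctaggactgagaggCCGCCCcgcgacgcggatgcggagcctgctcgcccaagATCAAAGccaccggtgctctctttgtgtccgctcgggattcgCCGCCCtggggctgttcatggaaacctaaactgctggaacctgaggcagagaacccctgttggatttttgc
Such a region was listed for 62 of the 72 tested members. The LEF/TCF letters were present in 1 of the 62, Kmt2d, which is 1.61%, and in 3.21% of all 32851 listed regions of that length. Kmt2d, an H3K4 methyltransferase of enhancers, read 3.24 and 3.42 with Wnt3A and 3.58 and 3.30 in control, and its groups overlapped. None of the 10 SMARC regions held them. The GC box was present in 9 of those 10, in 66.1% of the members' regions and in 32.7% of all regions. The CCAAT box was present in 1 of the 10 SMARC regions, that of Smarcal1, in 40.3% of the members' regions and in 33.8% of all regions. The count over all regions took every listed start, with no limit on signal. Members gave 1 region each and were above the limit for dim genes, so these shares are of unlike sets. The Smarca2 region holds 2 GC boxes and the Smarcc1 region 1, while that of Prdm1 holds 1 CCAAT box and no GC box.

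The 5 CHD remodellers went in both directions, and 3 did not overlap between groups, a state that 34.4% of all tested genes shared. Chd7, a remodeller of enhancers that is mutated in CHARGE syndrome, read 5.46 and 5.18 with Wnt3A, against 4.25 and 4.59 in control. It was the member with the widest positive difference, 0.90 (SE 0.25, 95% interval 0.25 to 1.55, adjusted p = 0.702 in limma). The other remodellers of the class were level or lower. Chd4, the ATPase of the NuRD deacetylase complex, read 7.42 and 7.02 with Wnt3A and 7.45 and 7.79 in control, and Chd1, a reader of H3K4 methylation, read 4.70 and 4.75 with Wnt3A and 4.83 and 5.69 in control. Neither overlapped, but within replicate 1 they differed by -0.03 and -0.14, and within replicate 2 by -0.78 and -0.94. Their other probe sets all overlapped, with differences of -0.19 and -0.09 for Chd4 and -0.06 and -0.14 for Chd1. Chd6 read 5.23 and 4.57 with Wnt3A and 5.17 and 5.45 in control and overlapped. Chd8, which can bind β-catenin and restrain its targets, read 7.18 and 6.71 with Wnt3A and 7.09 and 6.67 in control, a difference of 0.06 (95% confidence interval -0.67 to 0.79).

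The lysine methyltransferases were the most level of the larger classes. Of 13 tested, 7 were higher and 6 lower on the deposited scale, with a range from -0.21 to 0.24 and a median of 0.01 (all 13 were above 0, with a median of 0.33, after scaling to hybridization controls). Kmt2e, the gene of MLL5, which is known from C2C12 cells as a factor that keeps quiescent myoblasts able to differentiate, read 8.38 and 8.10 with Wnt3A, against 7.97 and 8.03 in control. The groups did not overlap, and the difference was 0.24 (SE 0.20, adjusted p = 0.932 in limma). Its second probe set read 7.79 and 7.56 with Wnt3A and 7.58 and 7.54 in control, and did overlap.

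The Polycomb methyltransferases of H3K27 overlapped between groups. Ezh2, the form of dividing cells, read 5.93 and 6.53 with Wnt3A and 6.03 and 6.55 in control, with the lower value in replicate 1 of both groups. Its difference was -0.06 (95% confidence interval -0.91 to 0.80). Ezh1, the form of resting and differentiated cells, read 6.63 and 6.30 with Wnt3A and 6.45 and 6.44 in control, a difference of 0.02 (95% confidence interval -0.56 to 0.60). The enzymes of H4K20 gave small values as well. Kmt5a, which adds the first methyl group and is tied to the cell cycle, read 6.95 and 6.25 with Wnt3A and 6.69 and 6.40 in control. Kmt5b, one of the enzymes that add the further groups and a gene needed for quiescence of mouse muscle stem cells, read 5.87 and 5.99 with Wnt3A and 5.86 and 5.86 in control. Kmt5c, the other one, read 4.70 and 4.52 with Wnt3A and 4.73 and 4.91 in control. Kmt5b was higher and Kmt5c lower without overlap, by no more than 0.21. The other probe sets of Kmt5b above the limit differed by -0.18 and 0.33, and both overlapped. The other 7 methyltransferases, Kmt2a, Kmt2c, Kmt2d, Setd1a, Setd3, Setd4 and Setd6, all overlapped. Setd3 read 7.28 and 7.26 with Wnt3A and 6.98 and 7.31 in control, and Setd4 read 3.41 and 3.54 with Wnt3A and 3.42 and 3.82 in control.

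The 3 PRDM genes, zinc-finger proteins with a domain related to the SET domain, were higher with Wnt3A under every scaling. Prdm1, which encodes the repressor BLIMP1, read 7.20 and 7.06 with Wnt3A, against 6.22 and 6.44 in control. The gap between the groups was wider than that between replicates of either. Its difference was 0.80 (SE 0.21, 95% interval 0.25 to 1.35, adjusted p = 0.658 in limma), with 0.98 within replicate 1 and 0.62 within replicate 2. Prdm9, the H3K4 methyltransferase that places meiotic recombination, was close to the limit for dim genes at 2.40 and 2.64 with Wnt3A and 2.30 and 2.18 in control. Prdm4 overlapped at 6.25 and 6.87 with Wnt3A and 6.35 and 6.49 in control, and its difference of 0.14 was -0.17 without replicate 2 of Wnt3A.

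Among 6 arginine methyltransferases 3 were higher and 3 lower on the deposited scale (4 were higher after scaling to hybridization controls). Prmt2, a coactivator of nuclear receptors, read 7.32 and 7.69 with Wnt3A, against 6.91 and 7.22 in control, a difference of 0.43 (SE 0.24) that was 0.41 and 0.46 within the replicate numbers. Its second probe set gave a wider gap, at 7.19 and 7.45 with Wnt3A, against 6.30 and 6.63 in control. Prmt3, which methylates a ribosomal protein, ran the other way at 6.62 and 6.77 with Wnt3A, against 7.07 and 7.30 in control, a difference of -0.49 (SE 0.21, adjusted p = 0.917 in limma). Prmt1, the main enzyme of asymmetric arginine methylation, read 8.41 and 8.51 with Wnt3A and 8.64 and 8.69 in control. These groups did not overlap. Prmt5, which with its symmetric mark is needed for muscle stem cell expansion in mice, read 5.73 and 5.97 with Wnt3A and 5.76 and 5.78 in control. Prmt7, needed to keep mouse muscle stem cells from senescence, read 4.78 and 4.46 with Wnt3A and 4.71 and 5.48 in control, where replicate 2 of control was high. Prmt5, Prmt6 and Prmt7 overlapped.

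The 12 tested lysine demethylases split evenly, with 6 higher and 6 lower, a median of -0.01 and a range from -0.54 to 0.52 (9 were higher after scaling to hybridization controls). Kdm8 read 2.86 and 3.06 with Wnt3A and 3.32 and 3.34 in control and was lower without overlap. Kdm2b, a demethylase that brings a variant of Polycomb complex PRC1 to CpG islands, read 5.69 and 5.33 with Wnt3A and 5.78 and 6.12 in control, also without overlap. Kdm4c, an eraser of H3K9 methylation, was the member of the class that was higher without overlap, at 6.22 and 5.95 with Wnt3A and 5.79 and 5.69 in control. Kdm5c overlapped close to the limit for dim genes, at 2.78 and 2.40 with Wnt3A and 2.43 and 1.78 in control.

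Demethylases with known roles in muscle or hypoxia did not separate the groups. Kdm1a (LSD1), an H3K4 demethylase that also favours muscle gene activation, read 8.68 and 8.44 with Wnt3A and 8.48 and 8.59 in control, a difference of 0.02 (95% confidence interval -0.48 to 0.53). Kdm6a (UTX), which removes the mark that Ezh2 places, read 6.30 and 5.86 with Wnt3A and 6.66 and 6.0 in control. Kdm3a, an H3K9 demethylase and a target of the hypoxia factor HIF1, read 8.79 and 10.01 with Wnt3A and 8.79 and 8.98 in control. Of these 4 arrays only replicate 2 of Wnt3A was high, and without it the difference of 0.52 was -0.09. Kdm5a, an H3K4 demethylase first found as a partner of the retinoblastoma protein, read 6.58 and 4.52 with Wnt3A and 6.68 and 3.48 in control. In both groups replicate 1 was high and replicate 2 low, by 2.06 with Wnt3A and 3.20 in control, and the SE of its difference was 1.26. Kdm3b, Kdm4b, Kdm5b and Kdm7a also overlapped.

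All 5 tested lysine acetyltransferases had a difference below 0 on the deposited scale (2 of 5 after scaling to hybridization controls), but in 4 of them the groups overlapped. Kat2a (GCN5) read 5.38 and 5.28 with Wnt3A, against 5.6 and 5.92 in control, a difference of -0.43 (SE 0.23, adjusted p = 0.917 in limma), and its other probe sets differed by -0.16 and -0.21. Kat2b (PCAF), which acetylates MyoD, read 8.16 and 6.23 with Wnt3A and 8.26 and 7.76 in control. Its difference of -0.82 rests on replicate 2 of Wnt3A, and without that array it was 0.15. The same array was the lowest of the 4 for MyoD's own gene, and a link of Kat2b to that gene was not tested. Kat6a (MOZ), which keeps stem cell programmes active, read 5.27 and 5.01 with Wnt3A and 5.37 and 5.06 in control, and its relative Kat6b read 6.92 and 6.17 with Wnt3A and 6.54 and 6.64 in control. Kat6a, Kat6b and Kat7 (HBO1) differed by -0.08, -0.05 and -0.05.

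In none of the 7 tested HDAC genes did the groups lie apart, where the groups of 34.4% of all tested genes did, and their differences ran from -0.23 to 0.07. Of class I, Hdac1 read 6.07 and 6.59 with Wnt3A and 6.34 and 6.55 in control, a difference of -0.12 (95% confidence interval -0.82 to 0.59). Hdac2 read 7.58 and 7.25 with Wnt3A and 7.45 and 7.26 in control, and Hdac3, the enzyme of the NCoR complex, read 6.78 and 7.28 with Wnt3A and 7.12 and 7.07 in control. The class II enzyme Hdac5, which binds MEF2 and keeps muscle genes silent, read 6.15 and 6.35 with Wnt3A and 6.0 and 6.95 in control, and replicate 2 of control stood highest. Its difference of -0.23 was 0.25 without that array. Hdac6, a cytoplasmic tubulin deacetylase, read 5.42 and 5.0 with Wnt3A and 5.33 and 5.53 in control. The class II enzyme Hdac7 read 5.67 and 5.12 with Wnt3A and 5.37 and 5.27 in control, and Hdac11, the class IV enzyme, read 3.94 and 3.06 with Wnt3A and 3.55 and 3.82 in control. Their differences were -0.22, 0.07 and -0.19. In all 7 genes the difference within replicate 1 and that within replicate 2 had opposite signs, as in 42.1% of all tested genes.

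Among the sirtuins, which need NAD as a cofactor, 1 of 5 was without overlap. Sirt4, a mitochondrial member, read 3.38 and 3.64 with Wnt3A, against 4.05 and 3.88 in control, a difference of -0.46 (SE 0.21, adjusted p = 0.917 in limma). Sirt1, a nuclear deacetylase linked to the metabolic switch of muscle stem cells in mice, read 6.07 and 5.46 with Wnt3A and 6.31 and 5.55 in control, with replicate 1 the higher in both groups. Sirt2, a mainly cytoplasmic tubulin deacetylase, read 7.44 and 7.05 with Wnt3A and 7.36 and 7.06 in control. The mitochondrial Sirt3 read 5.11 and 5.03 with Wnt3A and 5.04 and 5.77 in control, and the nucleolar Sirt7 read 5.39 and 6.04 with Wnt3A and 5.04 and 5.98 in control. All of these overlapped, with differences of 0.03, -0.33 and 0.20.

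Enzymes of DNA methylation all overlapped between groups. Dnmt1, which copies methylation after replication, read 6.73 and 7.05 with Wnt3A and 6.25 and 6.93 in control, a difference of 0.30 (95% confidence interval -0.52 to 1.12). Its second probe set gave the same size of difference, 0.31, without overlap. Of the enzymes that set new methylation, Dnmt3a read 6.34 and 5.79 with Wnt3A and 6.13 and 5.83 in control, and Dnmt3b read 3.33 and 2.80 with Wnt3A and 2.63 and 3.10 in control. For Dnmt3b the second probe set went the other way, by -0.42. Tet1, which starts the removal of the mark, read 2.51 and 2.26 with Wnt3A and 2.68 and 2.43 in control. Both Tet1 and Dnmt3l were close to the limit for dim genes, with differences of -0.17 and -0.06.

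**Figure D3:**
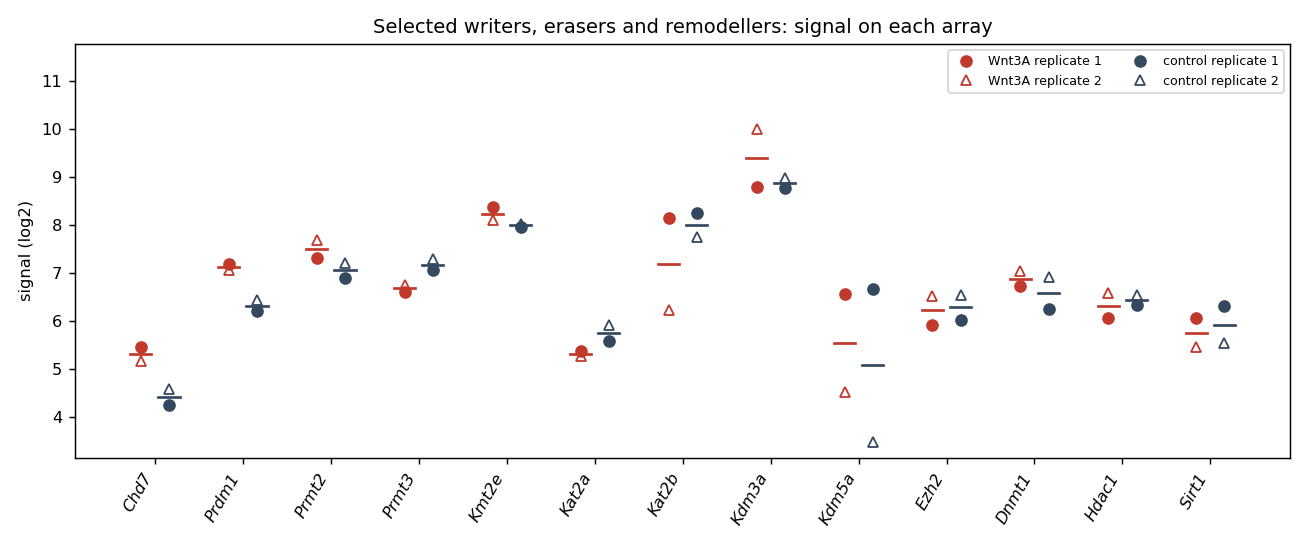
Signal (log2, vertical) of 13 members from the other classes on each array; circles are replicate 1, triangles replicate 2, and the bars are group means. Chd7 and Prdm1 have both Wnt3A arrays above both control arrays, while Kdm3a and Kat2b are set by replicate 2 of Wnt3A and Kdm5a follows the replicate number.

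The comparison was also made within each replicate number. In replicate 1 the median difference between Wnt3A and control over the 72 members was 0.01, and in replicate 2 it was -0.15; over all tested genes these medians were -0.0020 and -0.03. In 27 members, or 37.5%, both differences were below 0, where 30.8% of all tested genes had both below 0. In 14, or 19.4%, both were above 0, against 27.1% of all tested genes, and in 31 the signs were opposite. Of the SMARC genes 8 were lower in both and 3 had opposite signs, with a class median of -0.05 in replicate 1 and -0.41 in replicate 2. Smarca2 differed by -0.89 and -1.16, Smarcad1 by -0.46 and -0.50 and Smarcc1 by -0.47 and -0.94 in replicates 1 and 2. The remaining SMARC genes with both below 0 lay nearer to 0 in replicate 1, from -0.25 for Smarca5 to -0.01 for Smarcal1. The labels do not say that arrays of the same number were handled together.

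**Figure D4:**
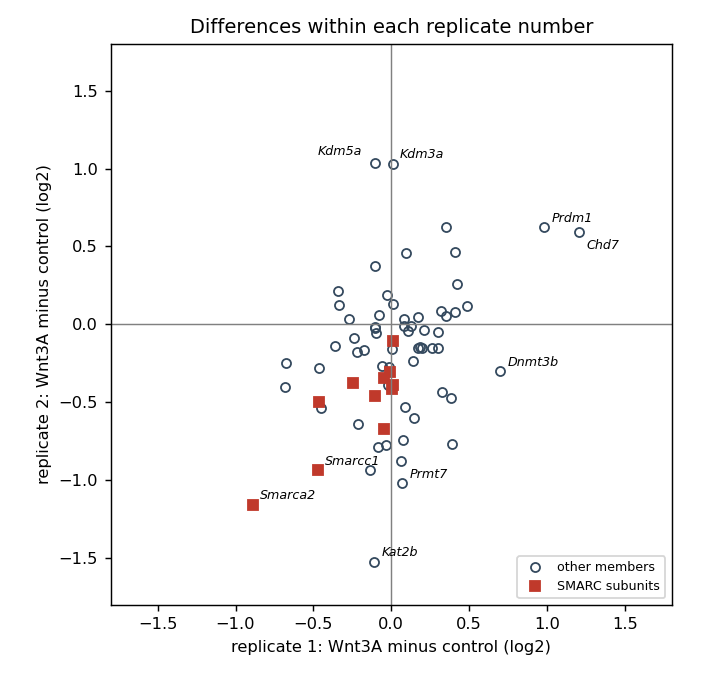
Difference between Wnt3A and control (log2) within replicate 1 (horizontal) and within replicate 2 (vertical) for the 72 tested genes, with SMARC subunits as filled squares. Chd7 and Prdm1 lie at the upper right and Smarca2 at the lower left, while Kat2b, Kdm3a and Kdm5a lie far from 0 in replicate 2 only.

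Some probe sets of these genes tracked the replicate number far more than the treatment. Of 111 member probe sets above the limit, 7 were at least 1 log2 unit higher in replicate 1 than in replicate 2 in both groups, and 0 ran the other way. Beside that of Kdm5a these were 2 of Chd4, 2 of Dnmt3a, 1 of Smarca5 and 1 of Smarcc1. The same count over all probe sets was not made, so it does not set the members apart from other genes. The second probe set of Smarcc1 was the plainest case, at 5.67 and 2.32 with Wnt3A and 5.64 and 2.16 in control, while its brighter probe set showed no such split. For Chd4 these sets read 7.63 and 5.53, and 6.82 and 4.59, with Wnt3A, and 7.42 and 6.12, and 6.66 and 4.93, in control. Members with several probe sets above the limit numbered 30, and for 13 of them the sign of the difference depended on the probe set. How often this holds over all genes was not counted.

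The partner genes of these enzymes are given as a comparison. Their directions are given on the deposited scale; scaled to hybridization controls most members of every partner list were above 0, with 10 of 12 as the smallest share. None of the partners passed an adjusted p of 0.05 in limma, and 2 had an unadjusted p under 0.05. Of 22 tested partners of SWI/SNF, ISWI and INO80 outside the SMARC family, 10 were higher and 12 lower (median difference -0.01); Brd7 and Arid2, subunits of the PBAF form, differed by -0.32 and 0.21. Of 19 partners of PRC2 and PRC1, 8 were higher and 11 lower (median difference -0.01). The PRC2 core subunit Eed read 7.21 and 7.65 with Wnt3A, against 6.97 and 7.06 in control, and the PRC1 subunit Phc1 read 5.54 and 5.08 with Wnt3A, against 5.61 and 5.99 in control. Of 17 deacetylase partners, 11 were higher and 6 lower (median difference 0.16), and 7 were higher without overlap, where 47% of all tested genes were higher and 14.7% were so without overlap. Mbd2, which binds methylated DNA for NuRD, read 8.10 and 8.0 with Wnt3A, against 7.77 and 7.60 in control, and Rcor1, the CoREST partner of Kdm1a, read 8.03 and 8.14 with Wnt3A, against 7.85 and 7.57 in control.

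A list of other lysine methyltransferases and COMPASS subunits, which also holds the arginine methyltransferase Carm1 (difference -0.21), leaned the other way as deposited. Of its 12 tested genes 1 was higher and 11 lower, with a median of -0.16, while after scaling to hybridization controls 10 were higher. Relative to the median of all genes 11 of the 12 were below as deposited. Scaling to hybridization controls shifts all genes of an array alike, so it cannot change that count. Smyd1, a methyltransferase of developing muscle, read 3.51 and 2.71 with Wnt3A, against 3.57 and 4.58 in control, and Ehmt2 (G9a), which holds back MyoD, read 6.82 and 6.20 with Wnt3A and 6.64 and 7.19 in control. Of 13 coactivator acetyltransferases and partners 7 were higher and 6 lower; Jade1 differed by -0.75 and Trrap by -0.38. Of 12 histone chaperones 5 were higher and 7 lower, and Anp32e and Asf1b differed by 0.26 and 0.19. Among 13 readers of histone and DNA marks, 7 were higher and 6 lower. Both partners with an unadjusted p under 0.05 belonged to that list. Gadd45g, a stress gene linked to DNA demethylation, read 7.60 and 8.50 with Wnt3A, against 6.79 and 7.13 in control, a difference of 1.09 (SE 0.36, adjusted p = 0.81 in limma). Its relative Gadd45b read 6.80 and 6.69 with Wnt3A, against 6.19 and 5.98 in control, a difference of 0.66 (SE 0.21). The proliferation genes, beside which Ezh2, Dnmt1 and Kmt5a are usually read, differed in their mean more between replicates than between groups. The mean of 24 of them was 4.53 and 5.37 with Wnt3A and 4.36 and 5.24 in control. Of 23 tested, 2 were higher and 4 lower without overlap, where 14.7% and 19.8% of all tested genes were so. Among the proliferation genes Mki67 read 4.22 and 5.21 with Wnt3A and 3.63 and 5.97 in control, and Top2a read 5.39 and 5.86 with Wnt3A and 4.92 and 6.56 in control. Both overlapped.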

How the data were processed

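The authors deposited log2 values, 1 per array for each of 22690 probe sets. The submitters' processing notes name GCOS and PLIER, with neither version nor role; the normalization is not given in the sources used here. Base 2 was read from the values (0.50 to 13.23), and another base would rescale every difference. Groups come from the sample titles. Array controls numbered 64 probe sets, 691 probe sets name several genes, and 20380 carry 1 symbol in the platform annotation, of which 20351 were matched by Entrez ID to RefSeq (GRCm38.p6). The probe set of highest mean stood for its gene. Genes in the lowest 25% by mean signal (limit 2.18) were left out, and the signals were not normalized again.

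The 2 groups were compared with limma 3.58.1 in R 4.3.3 (lmFit, then eBayes with a trend on intensity, 4.68 degrees of freedom; two-sided; no covariate). P-values were adjusted by Benjamini-Hochberg across the 9294 genes tested. The p-values measure the spread between these arrays, which may be technical. The members and lists were chosen with earlier results of these data known. Named members are those at least 2-fold apart, those at least 1.5-fold apart without overlap, per class the 3 of lowest p and the 2 brightest, and a fixed set of well-known enzymes, of which Tet2, Tet3, Hdac4, Hdac8, Hdac10, Sirt5, Sirt6, Kdm6b, Prdm2, Setd2 and Kat5 were not analysed here; per partner list, up to 2 of lowest p; and Axin2, Myod1, Myog, Mki67 and Top2a. Members and partners given beyond this rule, to account for all 76, were added after their values were seen. The procedure was run on simulated data with noise independent between arrays and no effect of the replicate number. Most of the differences put in there were larger than those of the members. Alternatives were the replicate number as a block, 3 scalings, 2 other filters, averaged probe sets, no trend, and each array left out.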

Additional observations from a re-analysis of the deposited data

How the results depend on the processing

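For Wnt3A versus control over all genes, limma called 83 at an adjusted p of 0.05 when the replicate block was added, 49 after scaling to the hybridization controls and 1 with the dimmer 50% left out, against 0 with the values as deposited, where 528 had an unadjusted p under 0.05. Axin2 was among those called under the block and under that scaling. No member and no partner gene passed under any alternative run. Under the block 6 members (8.33%) had an unadjusted p under 0.05, beside 11.7% of all tested genes, against 3 members (4.17%) and 5.68% of all genes without it. The labels give the same replicate numbers to both groups without saying that arrays were paired. Between the groups, the gaps between replicates 1 and 2 correlated at 0.61 over the members and at 0.48 over all tested genes (across genes, from 2 pairs of arrays). Of the 74 genes named with a difference, 55 of them members, 0 changed sign with the block, without the intensity trend, with either filter on dim genes, with quantile normalization or with median centring, among those each setting tested. Scaling to the hybridization controls, whose mean was 7.35 and 7.0 with Wnt3A and 7.42 and 7.57 in control, moved the median of all genes to 0.30. The members' median was then 0.25, with 56 higher and 16 lower, and the median difference of SMARC subunits was 0.037, with 4 lower. Under that scaling these genes changed sign: Ezh2 (0.26), Hdac1 (0.20), Hdac11 (0.13), Hdac3 (0.26), Hdac5 (0.091), Hdac6 (0.099), Kat6a (0.24), Kat6b (0.27), Kdm6a (0.069), Kmt5c (0.11), Prmt1 (0.12), Setd4 (0.17), Sirt1 (0.15), Smarca4 (0.11), Smarca5 (0.0072), Smarcb1 (0.27), Smarcd1 (0.13), Smarcd2 (0.12), Tet1 (0.15), Mki67 (0.23), Top2a (0.21). When the probe sets of each gene were averaged, Dnmt3b (-0.11), Kdm1a (-0.0086), Setd4 (0.040), Smarca4 (0.015) did; the added probe sets are what differs there. Leaving out 1 array gave a median difference of members from -0.20 (without Wnt3A replicate 1) to -0.029 (without Wnt3A replicate 2), with 21 to 33 higher and 39 to 51 lower, and from -0.39 to -0.17 over the SMARC genes. It changed the sign in 33 of the 74 genes, 1 of them a SMARC gene (Smarcb1), with these ranges: Anp32e (-0.0090 to 0.53), Asf1b (-0.023 to 0.41), Chd8 (-0.18 to 0.29), Dnmt1 (-0.041 to 0.64), Dnmt3a (-0.19 to 0.36), Dnmt3b (-0.064 to 0.47), Ezh1 (-0.15 to 0.18), Ezh2 (-0.36 to 0.24), Hdac1 (-0.38 to 0.14), Hdac11 (-0.63 to 0.25), Hdac2 (-0.11 to 0.22), Hdac3 (-0.31 to 0.19), Hdac5 (-0.70 to 0.25), Hdac7 (-0.20 to 0.35), Kat2b (-1.78 to 0.15), Kat6a (-0.23 to 0.073), Kat6b (-0.42 to 0.33), Kdm1a (-0.095 to 0.14), Kdm3a (-0.090 to 1.13), Kdm6a (-0.58 to 0.080), Kmt5a (-0.29 to 0.40), Mki67 (-1.25 to 1.09), Prdm4 (-0.17 to 0.44), Prmt5 (-0.041 to 0.20), Setd3 (-0.035 to 0.29), Setd4 (-0.34 to 0.052), Sirt1 (-0.55 to 0.21), Sirt2 (-0.16 to 0.23), Sirt3 (-0.70 to 0.031), Sirt7 (-0.27 to 0.67), Smarcb1 (-0.14 to 0.045), Top2a (-0.93 to 0.71), Trrap (-0.80 to 0.044). Other causes of these shifts were not tested. With 2 arrays a group and no detection calls used, the number of arrays limits the precision.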
